A study of Mus musculus with 17 samples.

Results

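The genes described here are 40 genes of the mitotic spindle, the kinetochore and cytokinesis, out of 55536 gene identifiers in the deposited RNA-seq tables of mouse hepatocytes. They were selected on the difference in expected counts between WRE-edited and Rosa26-edited libraries within a run (a code in the library names). That difference is therefore given below as a description, and no test of it is read for them. All 40 genes passed the filter on low counts, which 14393 genes passed in all. For the account they were split into 7 roles: 6 spindle motors, 6 spindle assembly genes, 7 kinetochore genes, 5 checkpoint genes, 4 chromosomal passenger genes, 7 cytokinesis genes and 5 genes of mitotic chromosomes and other mitotic factors.

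The hepatocytes came from livers of 3-month-old C57BL/6J mice of the genotype ApcDHep, which all groups share. In that model the Apc gene, a brake on β-catenin signalling, is deleted in hepatocytes with tamoxifen (2 mg and 7 days in the labels), and the Cre driver was not stated. All mice had received AAV8, a liver-directed viral vector, with SaCas9 constructs 1 month before. In the condition DLK1DWRE the constructs edited a site, upstream of DLK1/DIO3, that β-catenin binds (6 libraries, here WRE-edited 1 to 6). In the control condition ROSA26 they edited the Rosa26 locus (5 libraries, here Rosa26-edited 1 to 5). Cells were released by collagenase perfusion, and the labels do not say whether each library is a separate animal, so the errors below measure the spread between libraries. AAV editing can leave a mixture of edited and unedited cells, and the edited share was not analysed here.

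The library names end in a code, r770, r595 or r711, that is read here as a run. Run r770 holds WRE-edited 1 to 3 and Rosa26-edited 1 to 3, run r595 holds WRE-edited 6 and Rosa26-edited 4 and 5, and run r711 holds WRE-edited 4 and 5 with no Rosa26-edited library. WRE-edited 4 and 6 carry the same number in their names. Library totals were 20727036 to 38935135 expected counts, and the 2 mitochondrial ribosomal RNAs took 2.29% to 3.0% of them in r595 and 19.02% to 29.09% in the other runs. The lowest total was that of WRE-edited 6, which also had the fewest genes with a count, 17446, against 19711 to 21565 in the other libraries. Rian, a non-coding RNA of the edited locus, had 48.7 to 113 CPM (counts scaled to library size) in WRE-edited libraries and 171 to 405 CPM in Rosa26-edited libraries, with no overlap. Meg3, another non-coding RNA of that locus, had 42.7 to 83.9 CPM in WRE-edited libraries and 79.8 to 509 CPM in Rosa26-edited libraries, and these ranges overlapped. Summed CPM of 7 hepatocyte markers were 40514 to 51884 in WRE-edited and 41156 to 51305 in Rosa26-edited libraries. Most of each sum was Alb, with 31449 to 40404 CPM.

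Mitosis is driven by a small set of machines. Motor proteins of the kinesin family and the kinases Aurka and Plk1 build a bipolar spindle, kinetochores tie each chromosome to it, and the spindle checkpoint holds back the anaphase-promoting complex (APC/C) until all chromosomes are attached. The chromosomal passenger complex and the centralspindlin complex then place and close the cleavage furrow. Most of these genes are transcribed late in the cell cycle, when MuvB complexes with B-Myb and FoxM1 act at promoter elements named CHR, and they are held low in quiescent cells by the DREAM complex. Adult hepatocytes divide rarely, and during postnatal growth many of them end mitosis without cytokinesis, which leaves polyploid cells.

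The promoters of the 40 genes were compared by their letters, from a RefSeq table of windows on GRCm38.p6 that run from 250 bases before to 50 bases after the start site. A window was given for 35 of the 40 genes (not for Aurkb, Incenp, Kif20a, Spc24 and Tpx2) and for 27025 genes in all. The letters searched on both strands were TTTGAA or TTCGAA for the CHR, CCAAT for the CCAAT box and TTTCCCGC or TTTGGCGC for an E2F site. Matches were counted whether or not they overlapped each other. A CHR match was found in 28 of the 35 genes (80.0%), against 21.7% of all genes with a window. It began within 50 bases of the start site in 26 of them (74.3%, against 6.1% of all genes), 6 before the start and 20 after it. CCAAT was found in 26 genes (74.3%, against 41.1%), both motifs in 23 (65.7%, against 9.7%) and an E2F match in 1 (2.9%, against 1.8%). These are letter matches and say nothing of what bound there in these cells.

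To show how close the CHR letters sit to the start, these are the 30 bases around the match in the 6 genes where it is nearest, on the gene's strand with the match in capitals. Positions count from the start site, whose own base is the first after -1: the match begins at 3 in Cenpf and Kif23, 4 in Kif18b, -5 in Prc1, 6 in Racgap1 and 7 in Aspm. Prc1 has another start site, from which the match begins at -30. The start site used for Aspm lies well inside its gene model, which begins at 139454188.
Cenpf: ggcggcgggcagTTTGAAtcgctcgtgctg
Kif23: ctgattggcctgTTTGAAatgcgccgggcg
Kif18b: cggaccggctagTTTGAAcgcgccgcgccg
Prc1: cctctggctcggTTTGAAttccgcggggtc
Racgap1: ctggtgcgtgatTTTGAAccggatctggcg
Aspm: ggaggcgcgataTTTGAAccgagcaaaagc

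Cenpf at chr1:189688067-189688096 and Kif23 at chr9:61946780-61946809 lie on the minus strand, as do Kif18b at chr11:102925104-102925133 and Racgap1 at chr15:99651634-99651663, while Prc1 at chr7:80294434-80294463 and Aspm at chr1:139454767-139454796 lie on the plus strand. In 5 other genes the near match begins before the start. For 4 of these the 150 bases before the start are shown because they hold the CHR and, in 3 of them, CCAAT letters in one stretch. CHR and CCAAT matches are in capitals, and ATTGG and TTCAAA are the same letters read on the other strand. These 4 were picked after their letters were seen.
Cdc20: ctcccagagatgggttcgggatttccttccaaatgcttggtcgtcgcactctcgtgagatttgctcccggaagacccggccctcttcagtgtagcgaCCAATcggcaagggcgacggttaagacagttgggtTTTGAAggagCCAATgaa
Kif11: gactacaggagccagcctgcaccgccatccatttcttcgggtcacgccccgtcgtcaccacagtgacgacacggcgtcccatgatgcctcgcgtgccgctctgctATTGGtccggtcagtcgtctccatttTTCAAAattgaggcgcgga
Kif15: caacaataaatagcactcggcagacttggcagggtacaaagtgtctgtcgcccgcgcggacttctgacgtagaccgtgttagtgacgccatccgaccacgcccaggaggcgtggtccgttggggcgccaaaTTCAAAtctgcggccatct
Top2a: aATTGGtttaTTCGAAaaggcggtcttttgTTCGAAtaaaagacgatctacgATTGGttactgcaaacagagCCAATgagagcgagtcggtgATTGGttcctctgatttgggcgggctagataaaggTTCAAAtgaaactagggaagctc

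In Cdc20 (chr4:118437344-118437493, minus strand) the CHR begins at -18 between CCAAT boxes at -53 and -8. In Kif11 (chr19:37376232-37376381, plus strand) it begins at -19 after a CCAAT box at -45, and in Kif15 (chr9:122950931-122951080, plus strand) it begins at -19 with no CCAAT. Top2a (chr11:99024190-99024339, minus strand) holds 4 CCAAT boxes in this stretch, at -149, -98, -78 and -58, and CHR letters at -140, -120 and -23.

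**Figure D1:**
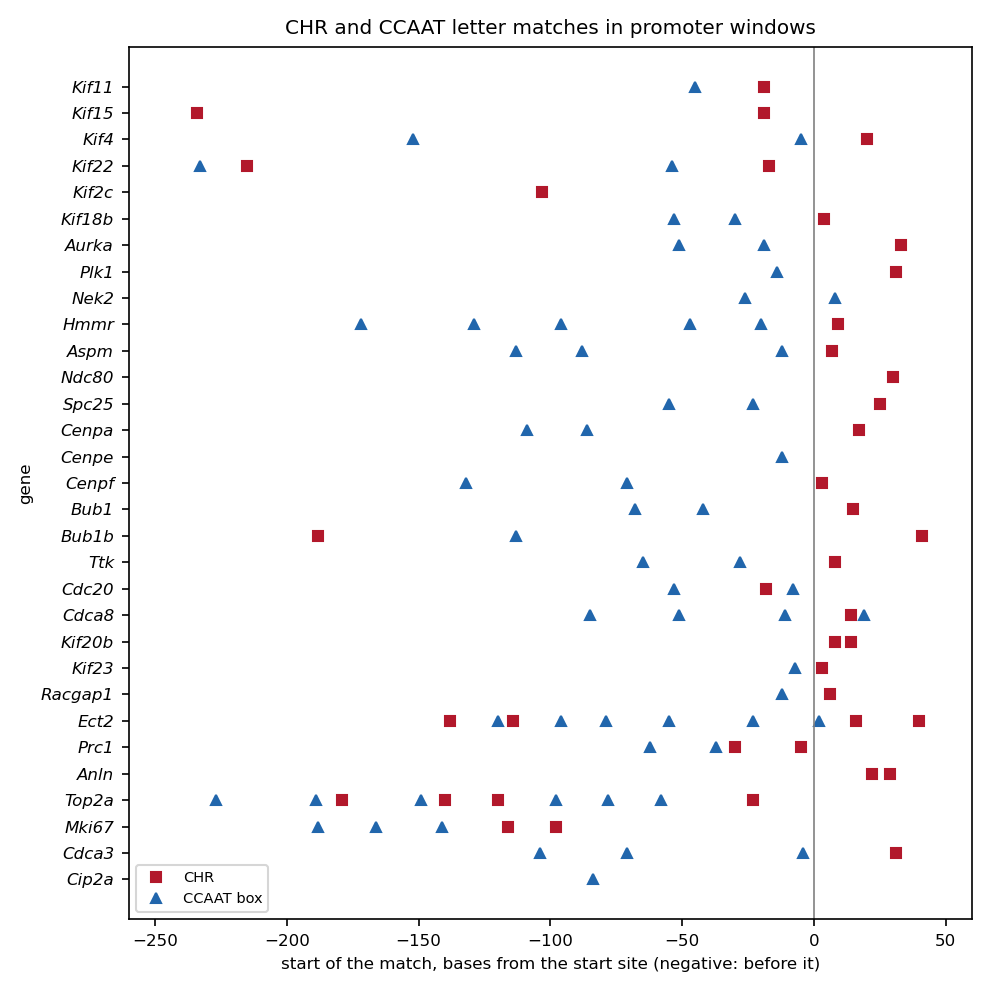
Start of each CHR match (red squares) and CCAAT match (blue triangles) on either strand, in bases from the start site, for the genes of the set that hold at least 1 of them. CHR squares gather within 50 bases of the start in 26 genes, and CCAAT triangles lie mostly before it.

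The 7 genes with a window and no CHR letters were Birc5, Cenpe, Cip2a, Mad2l1, Melk, Nek2 and Nuf2. They include small differences between groups, in Nek2 and Mad2l1, and large ones, in Melk, Cenpe and Nuf2. Their median log2 fold change, WRE-edited over Rosa26-edited, was -1.38, and that of the 28 genes with CHR letters was -0.94. Of 127 other mitotic genes with a window, 53 (41.7%) held CHR letters.

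Mitotic transcripts were rare in all libraries. Per length, the mean deposited level ran from 0.243 TPM (a level scaled by transcript length) for Kif18b to 10.3 TPM for Spc24, with a median of 1.11 TPM, and 18 of the 40 genes were under 1 TPM. The smallest count was 5, for the checkpoint kinase Ttk in WRE-edited 6, and the largest was 1504, for the proliferation marker Mki67 in WRE-edited 5.

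Summed over the 40 genes, WRE-edited 1 to 3 of r770 had 167, 171 and 98.3 CPM, against 271, 251 and 202 CPM in Rosa26-edited 1 to 3. In r595 WRE-edited 6 had 109 CPM, against 244 and 268 CPM in Rosa26-edited 4 and 5. WRE-edited 4 and 5 of r711 had 282 and 310 CPM. Within r770 and within r595 every WRE-edited sum was below every Rosa26-edited sum, while both r711 libraries were above all Rosa26-edited sums. In bulk samples, fewer dividing cells and less of these RNAs per cell cannot be told apart.

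**Figure D2:**
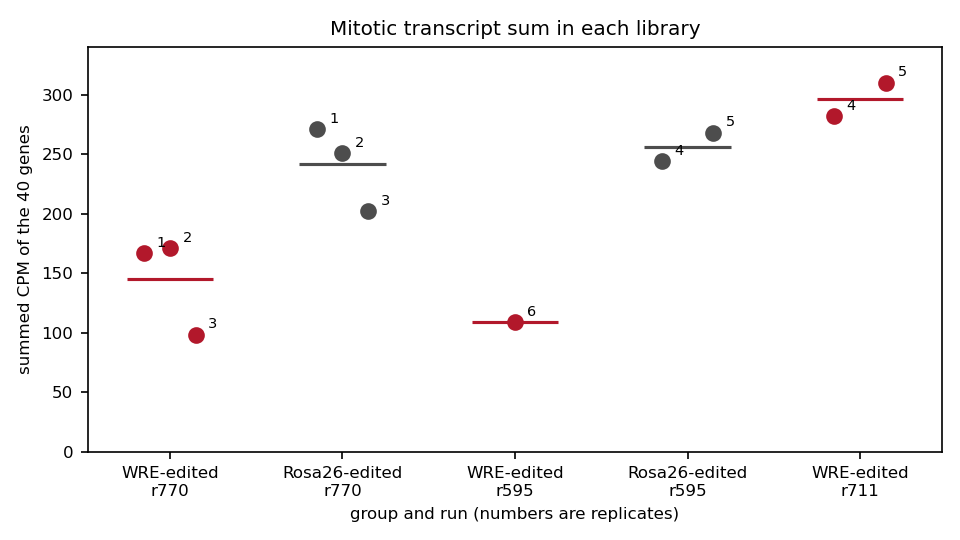
Summed CPM of the 40 genes in each library, by group and run, with replicate numbers beside the points and the mean of each group in a run as a line. WRE-edited libraries of r770 and r595 sit at 98.3 to 171 CPM, and those of r711 at 282 and 310 CPM, above the Rosa26-edited libraries at 202 to 271 CPM.

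The fitted log2 fold change, WRE-edited over Rosa26-edited with a term for the run, was negative for 39 of the 40 genes, with a median of -0.93 (1.91-fold lower), against 48.3% negative and a median of 0.01 over all genes tested. Since r711 has no Rosa26-edited library, this value comes from r770 and r595, and the r711 libraries inform only the spread. The range ran from -1.6 for Cenpf to 0.08 for Spc24. By edgeR's quasi-likelihood test with Benjamini-Hochberg adjustment over all genes, 0 of the 40 genes passed 0.05 (0.00695% of all genes did, 1 gene). At an unadjusted p under 0.05, 32 were lower and 0 higher (5.14% and 4.95% of all genes), and DESeq2 called 14 after adjustment (0.477% of all genes were called lower). The count of 32 was 3 with no run term, where 2.58% of all genes were lower, and 17 without WRE-edited 3 and 6, where 1.65% were. The genes were listed for this very contrast, so nothing is read from these counts.

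Within r770 all 3 WRE-edited libraries were below all 3 Rosa26-edited libraries in 24 of the 40 genes (4.34% of all genes tested), and within r595 WRE-edited 6 was below both Rosa26-edited libraries in 36 (34.4%). Both held in 22 genes (2.43%). Over all 11 libraries the groups did not overlap in 1 gene, Melk (0.222%). The r711 libraries were both above every WRE-edited library of r770 in 37 genes (17.4%), all but Ndc80, Spc24 and Incenp. Listing on differences within a run favours genes that are low in the WRE-edited libraries of r770 and r595. These counts are therefore a description too.

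The libraries did not share the low values evenly. WRE-edited 3 was the lowest of the 11 libraries for 20 genes and WRE-edited 6 for 14, which makes 34 of 40, against 24.5% of all genes with their lowest value in either. WRE-edited 5 was the highest for 16 genes, Rosa26-edited 5 for 8, WRE-edited 4 for 7 and Rosa26-edited 2 for 4. Without WRE-edited 3 and 6, an alternative chosen after the data were seen, the median was -0.52, and all 40 genes were negative. WRE-edited 6 was below WRE-edited 4, the other library with its number, in 37 of 40 genes (50.9% of all genes), with a median log2 difference of -1.38 (-0.02 over all genes). The labels do not say whether these are 1 animal. The listing within runs favours genes that are low in WRE-edited 3 and 6 and sets no such condition on WRE-edited 4 and 5. Nothing is therefore read from the counts in this paragraph or from their distance to all genes.

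**Figure D3:**
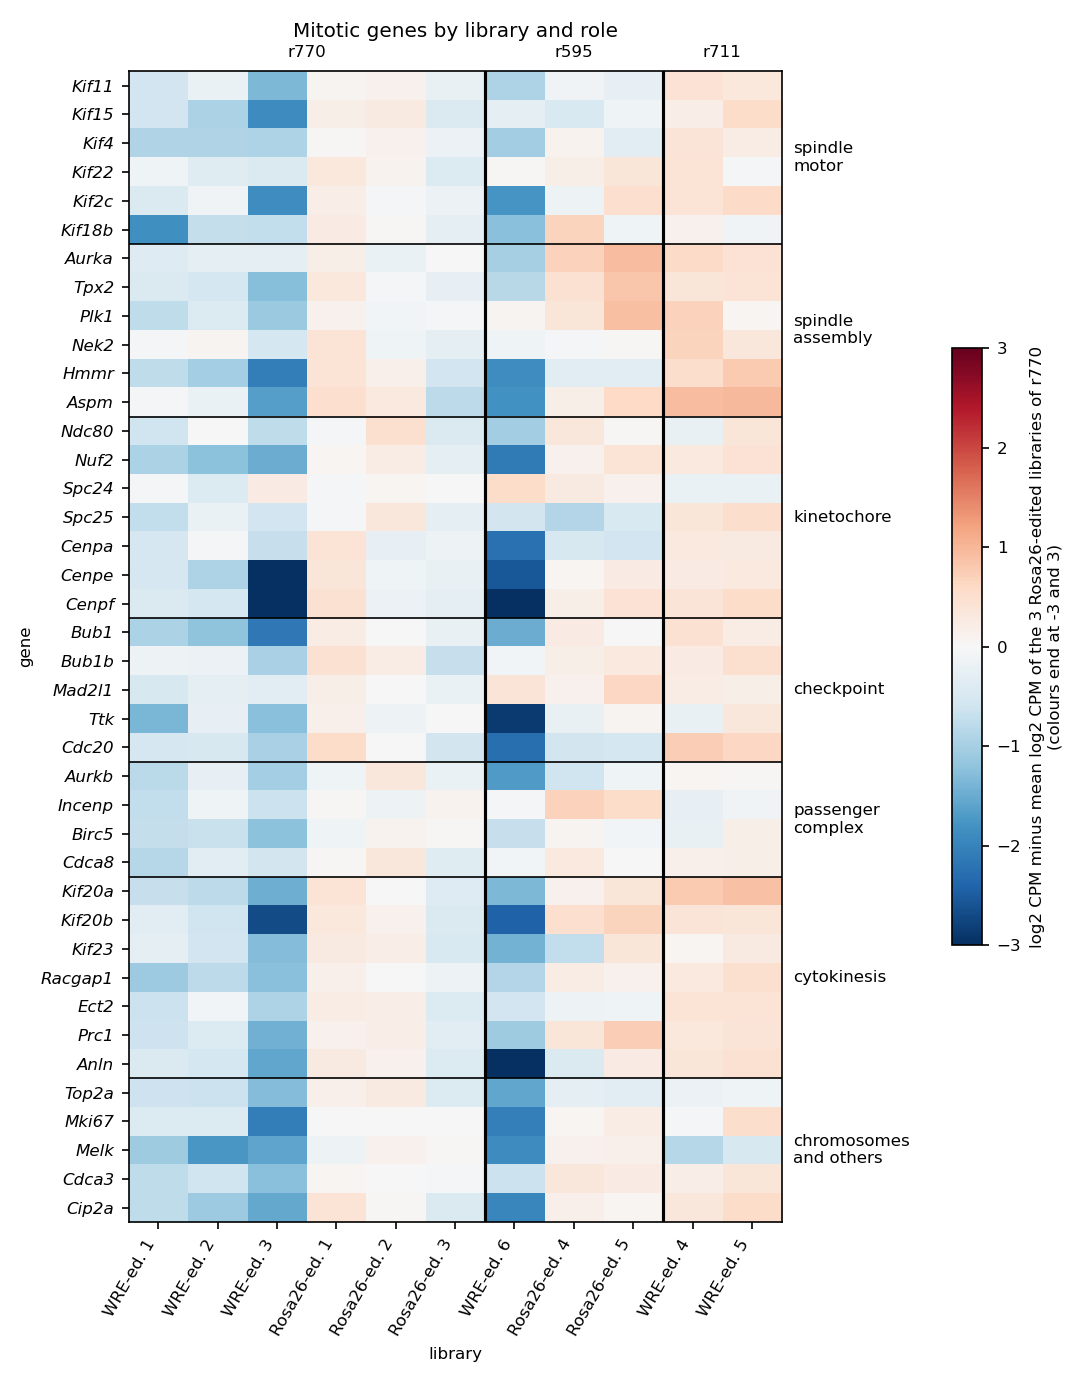
Log2 CPM of each of the 40 genes in each library, minus the mean of the Rosa26-edited libraries of r770, in rows by role and columns by run. The darkest blue columns are WRE-edited 3 and WRE-edited 6, the lowest library for 34 genes between them, and the r711 columns are mostly red.

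The spindle motors are kinesins that slide, cross-link or shorten microtubules. Kif11, the motor that pushes spindle poles apart (chromosome 19, 37376382 to 37421863), had 5.78, 7.4 and 3.33 CPM in WRE-edited 1 to 3, against 9.01, 9.4 and 7.35 CPM in Rosa26-edited 1 to 3. WRE-edited 6 of r595 had 4.52 CPM, against 7.95 and 7.2 CPM in Rosa26-edited 4 and 5, and WRE-edited 4 and 5 of r711 had 11.5 and 10.7 CPM. WRE-edited 3 was the lowest and WRE-edited 4 the highest of all 11 libraries, and in r770 the groups touched, with WRE-edited 2 just over Rosa26-edited 3 (log2 fold change -0.67 ± 0.2, SE). Kif22, a motor on chromosome arms (chromosome 7, 127027729 to 127042467), had 2.09, 1.76 and 1.68 CPM in WRE-edited 1 to 3, against 2.83, 2.44 and 1.71 CPM in Rosa26-edited 1 to 3. Within r595 the values were 2.32 CPM in WRE-edited 6, against 2.59 and 2.94 CPM in Rosa26-edited 4 and 5, with 3.04 and 2.22 CPM in WRE-edited 4 and 5 of r711. Its groups overlapped in r770, and its log2 fold change of -0.31 ± 0.23 was the smallest of the motors. Kif4, Kif2c, Kif15 and Kif18b, a chromosome-arm motor, a microtubule depolymerase, a second pole-separating motor and a motor of microtubule plus ends, ran from -0.74 to -1.17. Kif15 was at -1.08 within r770 and 0.01 within r595. The gene model of Kif4 shares 62763 bases with the non-coding Gm52438.

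The spindle assembly genes hold kinases and microtubule-binding proteins at the poles. Tpx2, which activates Aurka on the spindle (chromosome 2, 152847964 to 152895321), had 4.5, 4.16 and 2.49 CPM in WRE-edited 1 to 3, against 7.47, 5.77 and 5.1 CPM in Rosa26-edited 1 to 3. In r595 it had 3.38 CPM in WRE-edited 6, against 8.32 and 10.8 CPM in Rosa26-edited 4 and 5, and WRE-edited 4 and 5 of r711 had 7.75 and 7.96 CPM. The groups were apart within both runs (-0.94 ± 0.23), and the r711 libraries lay above every Rosa26-edited library of r770. Nek2, a kinase that parts the centrosomes (chromosome 1, 191821449 to 191833049), had 7.1, 7.78 and 5.15 CPM in WRE-edited 1 to 3, against 9.82, 6.74 and 6.1 CPM in Rosa26-edited 1 to 3. WRE-edited 6 of r595 had 6.71 CPM, against 7.25 and 7.53 CPM in Rosa26-edited 4 and 5, and WRE-edited 4 and 5 of r711 had 11.7 and 9.41 CPM. Its r770 groups overlapped, and its log2 fold change was -0.17 ± 0.18, within its error, and 0.09 with no run term. Aurka, the pole kinase, was at -0.3 within r770 and -1.74 within r595, and Aspm, a protein of the spindle poles, at -0.62 and -2.16. Hmmr, which binds microtubules at the poles, was the lowest of these genes at -1.32 ± 0.27, and Plk1, the polo kinase of mitotic entry and spindle assembly, was at -0.68 ± 0.26.

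The kinetochore genes spread most. Spc24 and Spc25 form the inner part of the Ndc80 complex, the microtubule grip of the kinetochore, and Ndc80 and Nuf2 form the outer part. Spc24 (chromosome 9, 21755434 to 21760446) had 9.22, 7.14 and 11.3 CPM in WRE-edited 1 to 3, against 9.16, 9.88 and 9.45 CPM in Rosa26-edited 1 to 3. Within r595 the values were 13.9 CPM in WRE-edited 6, against 11.5 and 10.4 CPM in Rosa26-edited 4 and 5, with 8.28 and 8.24 CPM in WRE-edited 4 and 5 of r711. It was the 1 gene of the set with a positive log2 fold change (0.08 ± 0.15, -0.06 with no run term, -0.22 when WRE-edited 3 and 6 were left out), and its highest value was in WRE-edited 6, a library where most of the set was low. Spc25 (chromosome 2, 69193895 to 69206213) had 2.64, 3.79 and 2.95 CPM in WRE-edited 1 to 3, against 4.22, 5.49 and 3.6 CPM in Rosa26-edited 1 to 3. In r595 WRE-edited 6 had 2.98 CPM, between the 2.37 and 3.19 CPM of Rosa26-edited 4 and 5, and WRE-edited 4 and 5 of r711 had 5.61 and 6.3 CPM. Its groups overlapped within both runs (-0.32 ± 0.21, and 0.09 with no run term). Their partners lay lower, Nuf2 at -1.52 ± 0.28 and Ndc80 at -0.67 ± 0.33.

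Cenpf, a large protein of the outer kinetochore (chromosome 1, 189640606 to 189688107), had 5.6, 5.29 and 0.526 CPM in WRE-edited 1 to 3, against 10.5, 6.71 and 6.24 CPM in Rosa26-edited 1 to 3. WRE-edited 6 of r595 had 0.702 CPM, against 8.62 and 10.3 CPM in Rosa26-edited 4 and 5, and WRE-edited 4 and 5 of r711 had 9.99 and 11.1 CPM. WRE-edited 3 and 6 stood on 15 and 16 counts, while the other libraries had 153 to 352, and its log2 fold change of -1.6 ± 0.65 was -0.52 without those 2 libraries. Cenpe, a kinesin that carries chromosomes to the spindle equator, was also far lower there, with 26 and 31 counts in WRE-edited 3 and 6 (-1.57 ± 0.44). Cenpa, the histone H3 variant that marks centromeres, was at -0.73 ± 0.27, with -1.63 within r595.

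Among the checkpoint genes, Mad2l1, the inhibitor that binds Cdc20 (chromosome 6, 66535221 to 66541107), had 3.37, 3.9 and 3.75 CPM in WRE-edited 1 to 3, against 5.32, 4.73 and 4.1 CPM in Rosa26-edited 1 to 3. In r595 WRE-edited 6 had 6.09 CPM, between the 5.14 and 7.27 CPM of Rosa26-edited 4 and 5, and WRE-edited 4 and 5 of r711 had 5.47 and 5.33 CPM. The r770 groups were apart by a small margin, and the r595 groups were not (-0.26 ± 0.17). Cdc20, the APC/C activator that the checkpoint restrains (chromosome 4, 118432901 to 118437343), had 3.07, 3.12 and 2.24 CPM in WRE-edited 1 to 3, against 6.4, 4.39 and 3 CPM in Rosa26-edited 1 to 3. In r595 it had 0.921 CPM in WRE-edited 6, against 3 and 3.05 CPM in Rosa26-edited 4 and 5, and WRE-edited 4 and 5 of r711 had 7.37 and 6.79 CPM. Its r711 libraries were the highest of all 11, and its log2 fold change of -0.95 ± 0.26 became -0.02 in a fit with no run term. Bub1 and Ttk, kinases that recruit the checkpoint to kinetochores, were at -1.43 ± 0.28 and -1.27 ± 0.41, and Bub1b, a part of the inhibitory complex, at -0.42 ± 0.26.

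The chromosomal passenger complex couples the kinase Aurkb to its scaffold Incenp and to Birc5 (survivin) and Cdca8 (borealin), which place it at centromeres. Birc5 (chromosome 11, 117849237 to 117855743) had 1.68, 1.74 and 1.19 CPM in WRE-edited 1 to 3, against 2.53, 2.99 and 2.82 CPM in Rosa26-edited 1 to 3. WRE-edited 6 of r595 had 1.71 CPM, against 2.92 and 2.61 CPM in Rosa26-edited 4 and 5, and WRE-edited 4 and 5 of r711 had 2.38 and 3.15 CPM. Its groups were apart within both runs (-0.8 ± 0.22), and its WRE-edited r770 mean of 1.54 ± 0.3 CPM stood against a Rosa26-edited mean of 2.78 ± 0.233 CPM (SD, n = 3 each). Incenp (chromosome 19, 9872295 to 9899489) had 1.94, 2.98 and 2.07 CPM in WRE-edited 1 to 3, against 3.36, 2.93 and 3.5 CPM in Rosa26-edited 1 to 3. Within r595 the values were 3.2 CPM in WRE-edited 6, against 5.25 and 4.74 CPM in Rosa26-edited 4 and 5, with 2.76 and 3.03 CPM in WRE-edited 4 and 5 of r711. WRE-edited 2 lay just above Rosa26-edited 2 (-0.53 ± 0.19), and the r711 libraries did not both stand above the WRE-edited ones of r770. Aurkb was at -0.84 ± 0.27 and Cdca8 at -0.47 ± 0.25, so the 4 subunits lay between -0.84 and -0.47, the narrowest range of the 7 roles.

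The cytokinesis genes build the central spindle and the cleavage furrow. Kif20a, a kinesin of the midzone that brings the passenger complex there, had 6, 5.7 and 3.51 CPM in WRE-edited 1 to 3, against 13, 9.64 and 7.42 CPM in Rosa26-edited 1 to 3. In r595 it had 3.86 CPM in WRE-edited 6, against 10.6 and 12.6 CPM in Rosa26-edited 4 and 5, and WRE-edited 4 and 5 of r711 had 16.9 and 17.9 CPM. The groups were apart within both runs (-1.15 ± 0.22), and the r711 libraries were the highest of all. Its gene model shares 4930 bases with Cdc23, a subunit of the APC/C, and whether counting used strand was not stated, so reads of the pair could be split. Prc1, which bundles antiparallel microtubules (chromosome 7, 80294445 to 80316259), had 5.34, 6.22 and 3.05 CPM in WRE-edited 1 to 3, against 8.98, 9.36 and 6.6 CPM in Rosa26-edited 1 to 3. WRE-edited 6 of r595 had 3.9 CPM, against 10.5 and 13.6 CPM in Rosa26-edited 4 and 5, and WRE-edited 4 and 5 of r711 had 10.2 and 10.7 CPM. Here too the groups were apart within both runs (-1.01 ± 0.24), and the model shares 21669 bases with Rccd1.

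Kif23 and Racgap1, the motor and the GTPase-activating subunit of centralspindlin, were at -0.88 ± 0.3 and -1.04 ± 0.17, and Ect2, the exchange factor that activates RhoA at the furrow, at -0.5 ± 0.2. Anln (anillin), the scaffold of the contractile ring, had 57 and 14 counts in WRE-edited 3 and 6 and 117 to 237 elsewhere (-1.3 ± 0.4, and -3.03 within r595). Kif20b, a kinesin of the midbody, had 19 and 18 counts there and 88 to 185 elsewhere (-1.43 ± 0.47). All 7 cytokinesis genes were below both Rosa26-edited libraries of r595 in WRE-edited 6 (34.4% of all genes tested), and 4 of 7 were apart in r770 (4.34%).

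The last role holds chromosome proteins and other mitotic factors. Top2a, the topoisomerase that untangles sister chromatids (chromosome 11, 98992947 to 99024199), had 18, 17.8 and 11.2 CPM in WRE-edited 1 to 3, against 30.7, 33.4 and 20.9 CPM in Rosa26-edited 1 to 3. Within r595 the values were 9.38 CPM in WRE-edited 6, against 22.8 and 21.8 CPM in Rosa26-edited 4 and 5, with 24.7 and 25.6 CPM in WRE-edited 4 and 5 of r711. The groups were apart within both runs (-0.97 ± 0.18), with r770 means of 15.6 ± 3.88 CPM in WRE-edited and 28.3 ± 6.6 CPM in Rosa26-edited libraries (SD, n = 3 each). Cdca3, a regulator of mitotic entry (chromosome 6, 124829530 to 124833701), had 3.4, 3.85 and 2.42 CPM in WRE-edited 1 to 3, against 6.01, 5.8 and 5.57 CPM in Rosa26-edited 1 to 3. In r595 it had 3.68 CPM in WRE-edited 6, against 7.32 and 6.87 CPM in Rosa26-edited 4 and 5, and WRE-edited 4 and 5 of r711 had 6.61 and 7.43 CPM. The WRE-edited libraries of both runs were close to each other and all below the Rosa26-edited ones (-0.87 ± 0.17).

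Melk, a kinase of proliferating cells (chromosome 4, 44300909 to 44364675), had 0.695, 0.434 and 0.491 CPM in WRE-edited 1 to 3, against 1.31, 1.59 and 1.5 CPM in Rosa26-edited 1 to 3. WRE-edited 6 of r595 had 0.395 CPM, against 1.59 and 1.62 CPM in Rosa26-edited 4 and 5, and WRE-edited 4 and 5 of r711 had 0.809 and 1.05 CPM. It was the 1 gene in which all 6 WRE-edited libraries lay below all Rosa26-edited libraries (-1.59 ± 0.32), on 9 to 26 counts in WRE-edited and 42 to 52 counts in Rosa26-edited libraries. Mki67, which coats mitotic chromosomes, had 31.7, 31.8 and 10 CPM in WRE-edited 1 to 3, against 41.4, 42 and 42.5 CPM in Rosa26-edited 1 to 3. The r595 values were 10.2 CPM in WRE-edited 6, against 44 and 49.1 CPM in Rosa26-edited 4 and 5. For r711, Mki67 had 41.2 and 60.8 CPM in WRE-edited 4 and 5, the latter the highest of all libraries. Its 3 Rosa26-edited libraries of r770 were nearly equal, and WRE-edited 3 stood far under WRE-edited 1 and 2 (-1.16 ± 0.36). Cip2a, an inhibitor of the phosphatase PP2A, was at -1.38 ± 0.27. All 5 genes of this role were apart within both runs (2.43% of all genes tested).

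**Figure D4:**
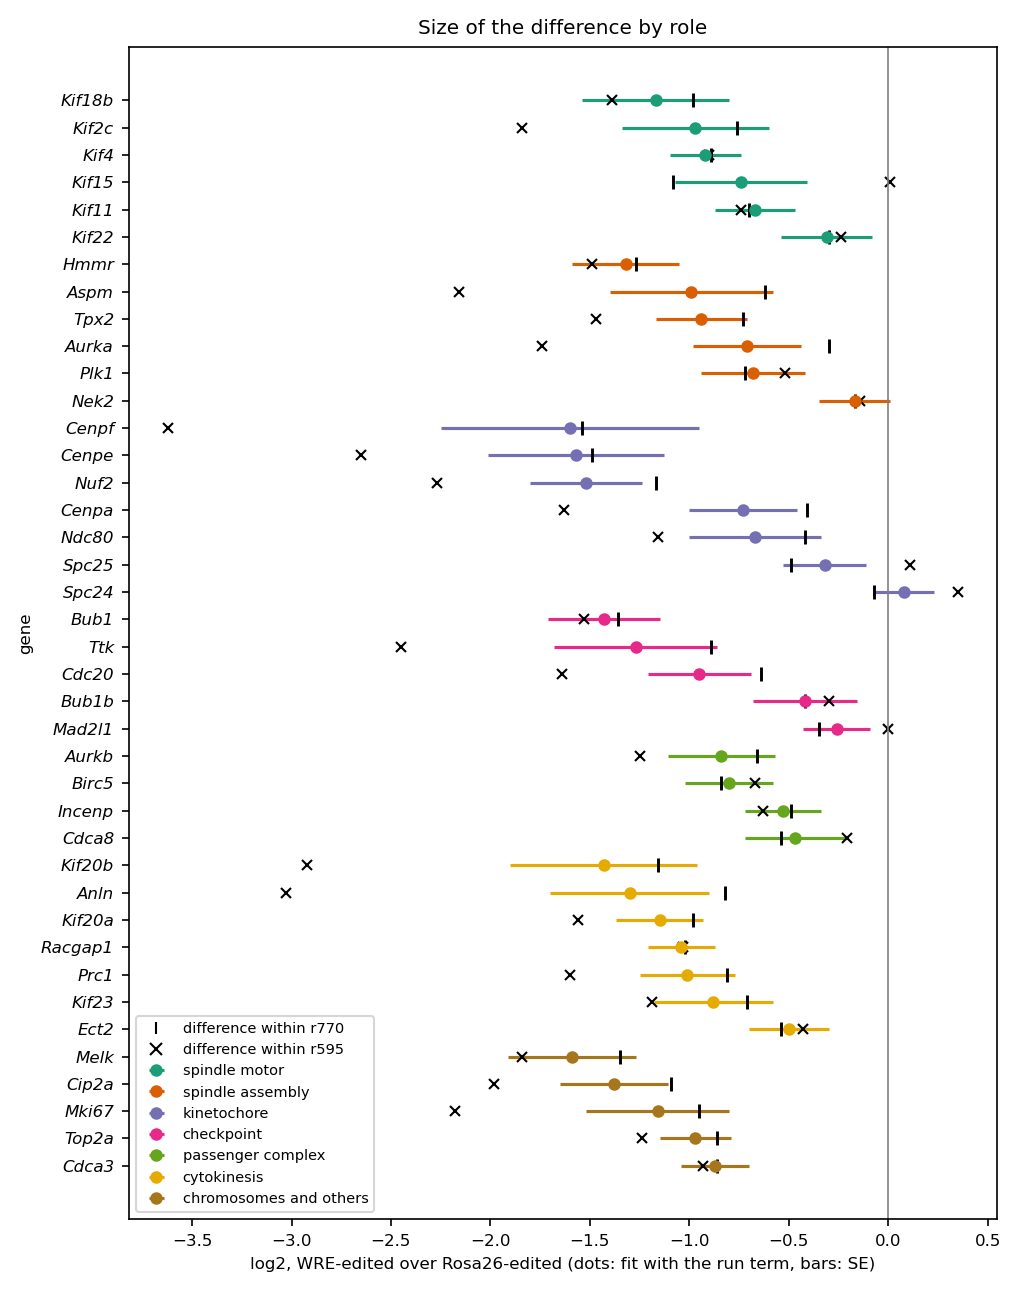
Log2 fold change, WRE-edited over Rosa26-edited, of each gene by role (dots with SE bars, fitted with a term for the run), with the difference within r770 (vertical ticks) and within r595 (crosses). The crosses of Cenpf, Anln and Kif20b lie farthest left, at -3.62, -3.03 and -2.92, and Spc24 and Nek2 lie nearest to 0.

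By role the median log2 fold changes were -1.16 for chromosomes and others, -1.04 for cytokinesis, -0.95 for the checkpoint, -0.83 for motors, -0.82 for spindle assembly, -0.73 for the kinetochore and -0.67 for the passenger complex. The difference within r595, which rests on 1 WRE-edited library, was wider than within r770 for most roles: -1.63 against -0.49 for the kinetochore, -1.56 against -0.82 for cytokinesis and -1.48 against -0.67 for spindle assembly. It was -0.82 in both runs for the motors. Over all 40 genes the median was -1.32 within r595 and -0.79 within r770. Whether the difference depends on the run cannot be read from 1 WRE-edited library in r595.

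The lower values of WRE-edited 3 and 6 were larger for long genes. In WRE-edited 6 the 9 genes over 4000 bases of effective length were at a median log2 difference of -2.18 from the Rosa26-edited mean of r595, the 16 genes of 2000 to 4000 bases at -1.43 and the 15 shorter genes at -0.93. All genes tested in these length classes were at -0.14, -0.02 and 0.17. In WRE-edited 3 the values were -1.62, -1.24 and -0.94, against -0.18, -0.03 and 0.09 for all genes. The order was slight in WRE-edited 2, at -0.53, -0.46 and -0.4, and absent in WRE-edited 1, at -0.44, -0.66 and -0.7. Taking out a smooth curve of log2 CPM against length, fitted in each library across all genes, left the median of the 40 genes at -0.91. The part of RNA quality in the difference was not tested.

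The run itself gives a comparison that the listing of the genes did not use, since the Rosa26-edited libraries of r595 and r770 carry the same edit. In r595 over r770 (2 libraries against 3, 15107 genes tested by edgeR's quasi-likelihood test), 0 of the 40 genes passed adjustment (1.09% of all genes were called higher and 3.36% lower). The median of the 40 genes was 0.12, and 0.02 over all genes. At an unadjusted p under 0.05, 3 of the 40 were higher and 0 lower (9.79% and 13.4% of all genes), and DESeq2 called 0 of the 40 (10.8% of all genes). The 3 were Aurka at 0.79 ± 0.28 (edgeR adjusted p = 0.151), Tpx2 at 0.62 ± 0.25 (edgeR adjusted p = 0.182) and Incenp at 0.6 ± 0.25 (edgeR adjusted p = 0.203). With the deposited effective lengths as offsets, 2 of the 40 passed (7.6% of all genes did), Spc24 at 1.17 and Cenpa at -1.46. The unadjusted counts and the median depended on single libraries: without Rosa26-edited 3, 1 of the 40 was higher and 4 were lower with a median of -0.03, and without Rosa26-edited 5, 0 were higher and 0 lower with a median of 0.05. In r711, which holds no Rosa26-edited library, group and run cannot be told apart.

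Of the 7 hepatocyte markers, 1 was higher at an unadjusted p under 0.05 by edgeR, Hnf4a at 0.32 ± 0.13, and 0 passed adjustment. Markers of other liver cells were followed beside the mitotic genes. The 8 stellate cell and fibroblast markers summed to 40.5 to 105 CPM in WRE-edited and 71.2 to 101 CPM in Rosa26-edited libraries, and all 8 had negative log2 fold changes (median -0.58), 2 of them at an unadjusted p under 0.05 by edgeR and 0 after adjustment. The lowest sums, 40.5 and 41.2 CPM, were in WRE-edited 6 and 3, the libraries with the lowest mitotic sums, while WRE-edited 1 had 105 CPM. The 6 endothelial markers (102 to 162 CPM in WRE-edited, 105 to 167 CPM in Rosa26-edited, median -0.23) and the 6 macrophage markers (173 to 256 CPM in WRE-edited, 165 to 672 CPM in Rosa26-edited, median -0.42) were also all negative, with overlapping groups. Of the 672 CPM, in Rosa26-edited 5, the macrophage marker Marco alone made 370 CPM, and it had 11.2 to 32.9 CPM in every other library. Lymphocyte markers summed to 14.4 to 24.4 CPM in WRE-edited and 16.9 to 40.8 CPM in Rosa26-edited libraries. The 2 lymphocyte markers tested were both negative (median -0.51), as were the 2 neutrophil markers tested (median -0.88). Of these, 0 were at an unadjusted p under 0.05 by edgeR. Neutrophil markers summed to 2.85 to 5.29 CPM in WRE-edited and 2.43 to 17.4 CPM in Rosa26-edited libraries, and cholangiocyte markers to 6.09 to 13.2 CPM in WRE-edited and 7.06 to 24.1 CPM in Rosa26-edited libraries. The 2 cholangiocyte markers tested went opposite ways, Spp1 at -1.02 ± 0.51 and Sox9 at 0.92 ± 0.34. Sox9 was higher at an unadjusted p under 0.05 by edgeR, and 0 passed adjustment. Erythroid markers summed to 7.47 to 10.5 CPM in WRE-edited and 6.48 to 22.8 CPM in Rosa26-edited libraries. Of the 3 tested, the globins Hba-a1 (-2.44 ± 0.71) and Hbb-bs (-1.66 ± 0.48), whose reads near-identical copies may share, were lower at an unadjusted p under 0.05 by edgeR, Alas2 (0.45 ± 0.19) was higher, and 0 passed adjustment. The defining Cd3e, Ly6g and Krt19 had 0 counts in at least 1 library and at most 17 in any. Their part in the mitotic result was not tested.

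To see how far the difference reached beyond the 40 genes, 9 further lists of 151 mitotic genes were followed, drawn up by role with the earlier results known. Of 148 tested, 104 had negative log2 fold changes, with a median of -0.18, against 0.01 over all genes. By edgeR 0 passed adjustment, and 37 were lower and 0 higher at an unadjusted p under 0.05 (5.14% and 4.95% of all genes). DESeq2 called 11 after adjustment, and over all genes it called 66 lower and 17 higher of 13823. With no run term 4 of 148 were lower (2.7%), against 2.58% of all genes, and without WRE-edited 3 and 6 there were 15 (10.1%), against 1.65%. Cenps, Ska1 and Mybl2 were not tested, with at most 20 counts in any library.

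**Figure D5:**
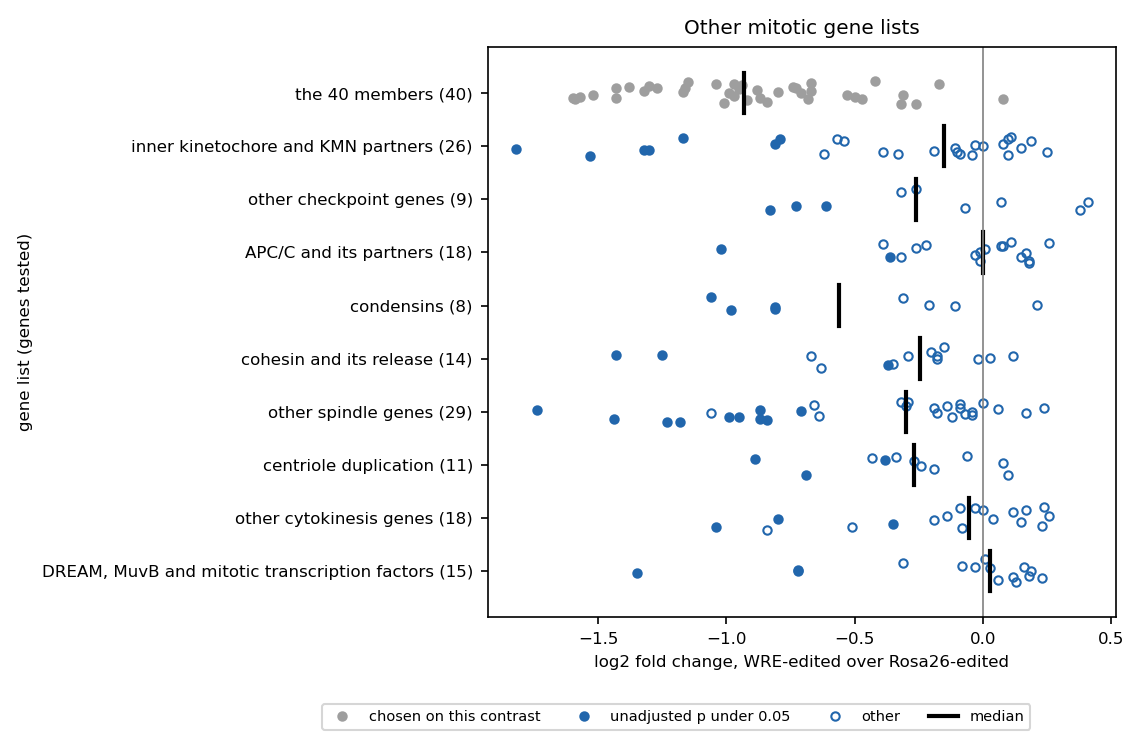
Log2 fold change, WRE-edited over Rosa26-edited, of each gene of the 9 further lists (filled points at an unadjusted p under 0.05 by edgeR, hollow points otherwise), with the 40 genes in grey at the top and the median of each list as a bar. The bars of the condensins (-0.56) and of the other spindle genes (-0.3) lie lowest of the 9, and those of the APC/C and of the DREAM and MuvB list lie at about 0.

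The condensins, which compact mitotic chromosomes, had the lowest list median, -0.56, with 4 of 8 genes lower at an unadjusted p under 0.05. Smc2, a core ATPase that both condensins share, had 8.42, 7.87, 4.45, 11.7, 12.8 and 3.95 CPM in WRE-edited 1 to 6, against 12.2, 12.8, 9.17, 12.1 and 12.9 CPM in Rosa26-edited 1 to 5. As with the 40 genes, the r711 libraries were high and WRE-edited 3 and 6 lowest (-0.98 ± 0.23, edgeR adjusted p = 0.313). Its partner Smc4 was at -0.81 ± 0.22 and the condensin II subunit Ncapg2 at -1.06 ± 0.29. Cohesin and its release had a median of -0.24, with 3 of 14 lower: Sgo2a (shugoshin, which protects cohesin at centromeres) at -1.25 ± 0.4, Espl1 (separase, which cuts it) at -1.43 ± 0.51 and Smc3 (a ring subunit) at -0.37 ± 0.15.

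Of 29 other spindle genes, 10 were lower (median -0.3). Ckap2, which stabilises spindle microtubules, had 3.92, 3.96, 1.93, 9.8, 9.13 and 0.789 CPM in WRE-edited 1 to 6, against 8.18, 6.34, 5.99, 5.25 and 5.18 CPM in Rosa26-edited 1 to 5. The WRE-edited values spanned both sides of the Rosa26-edited ones, with r711 above and the rest below (-1.44 ± 0.3, edgeR adjusted p = 0.262). Nusap1, which binds microtubules near chromosomes, was at -1.18 ± 0.26 (edgeR adjusted p = 0.266) and Haus3, a subunit of the augmin complex that branches microtubules, at -0.87 ± 0.2 (edgeR adjusted p = 0.293). DESeq2 called 6 of these 29 genes after adjustment, these 3 among them, and also Smc2 (0.477% of all genes were called lower). Centriole duplication genes had 3 of 11 lower (median -0.27), Plk4, its master kinase, at -0.69 ± 0.22, Stil at -0.89 ± 0.38 and Cenpj at -0.38 ± 0.17.

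The inner kinetochore and the partners of the Ndc80 complex had a median of -0.15, with 7 of 26 lower, among them the centromere subunits Cenpu (-1.17 ± 0.32) and Cenpi (-1.32 ± 0.38). Other checkpoint genes had 3 of 9 lower, Zwilch at -0.83 ± 0.31, Kntc1 at -0.73 ± 0.32 and Spdl1 at -0.61 ± 0.27, which act together in bringing dynein to kinetochores. Other cytokinesis genes had 3 of 18 lower and a median of -0.06, with Shcbp1 at -0.8 ± 0.25, the kinase Pbk at -1.04 ± 0.34 and the septin Septin7 at -0.35 ± 0.15.

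The APC/C, the ubiquitin ligase that drives exit from mitosis, and its partners had 2 of 18 lower, Cdc27 at -0.36 ± 0.13 and Ube2c, its ubiquitin-conjugating enzyme, at -1.02 ± 0.24. Anapc10, at -0.39 ± 0.23, was not past that threshold. Of 15 genes of the DREAM and MuvB complexes and mitotic transcription factors, 2 were lower and the median was 0.03: Rbl1 (p107, a pocket protein of DREAM) at -0.72 ± 0.18 and Foxm1, the forkhead factor named above, at -1.35 ± 0.42. DESeq2 called Ube2c and Rbl1 lower after adjustment. Foxm1 had 0.878, 1.68, 0.491, 1.86, 2.02 and 0.395 CPM in WRE-edited 1 to 6, against 2.05, 1.74, 1.86, 2.52 and 3.19 CPM in Rosa26-edited 1 to 5. Its lowest values too were in WRE-edited 3 and 6 (edgeR adjusted p = 0.414). E2f7, a repressor of the E2F family, was at -0.72 ± 0.46, and it was not past the unadjusted threshold.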

How the data were processed

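Each RNA-seq library came as 1 deposited table of expected counts by Ensembl identifier. The submitters' processing notes name STAR 2.7.6a, RSEM 1.3.1 and the build GRCm38; the use of strand and the annotation release were not stated in the sources read. Those tables also hold deposited TPM and effective lengths, other values in bases. The authors' normalized signal (15322 genes), for which the same notes name DESeq2 1.26.0 and R 3.6.3, served as an alternative. Small RNA libraries were not used here.

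Counts were rounded; 55450 of 55536 identifiers matched a gene name. The 40 genes and all lists were chosen with earlier results of these data known. In R 4.3.3, edgeR 4.0.16 (filterByExpr by group, minimum count 10 and total 15, TMM, robust quasi-likelihood, residual degrees of freedom 7) fitted run and group, two-sided, with Benjamini-Hochberg adjustment at 0.05. CPM use TMM factors, and log2 CPM a prior count of 2. Genes named in full were the 2 highest by TPM in each role and the lowest 2 and highest 1 by log2 fold change; Mki67, Cenpe, Anln and Kif20b were added after their values were seen. In the further lists up to 3 genes per list with the smallest p were named; 1 gene is not reported here. Alternatives included DESeq2 1.42.0, no filter, no run term, a replicate block, limma 3.58.1 on log2(signal + 1), and each library left out. The edgeR fits were also run on counts simulated without a run effect or a length trend, so that check does not cover those features.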

Additional observations from a re-analysis of the deposited data

Results flagged for a closer look

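Among 148 groups of 5 or 6 libraries that were checked, 6 held a library far from the others of its group, a rule that chance meets in about 1 of 20 groups. No gene of the 40 was among them. Rosa26-edited 3 stood apart for 3 genes: Smc2 was low at 9.17 CPM (12.1 to 12.9 CPM in the other Rosa26-edited libraries), Kntc1 was high at 3.89 CPM (2.02 to 2.47), and E2f7 was high at 0.856 CPM (0.366 to 0.481). Stil was high in Rosa26-edited 1 at 1.99 CPM (0.714 to 1.01). Plk4 was high in WRE-edited 4 at 2.95 CPM (1.47 to 2.02 in the other WRE-edited libraries). The summed erythroid markers were high in Rosa26-edited 2 at 22.8 CPM (6.48 to 9.8).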

How the results depend on the processing

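The median log2 fold change of the 40 genes, -0.93 with a run term, was -0.41 where the run was left out. It was also -0.41 where WRE-edited 4 and 6 were added up as 1 sample in that fit, and -0.37 where the replicate number took the place of the run as a block. Without WRE-edited 3 and 6 (chosen after seeing the data) it was -0.52. It ran from -0.74 to -0.93 under DESeq2, no filter, r770 alone, a replicate block with the run term (-0.78), effective lengths, the length trend and the authors' signal, the last 2 also chosen after seeing the data, and from -1.05 to -0.75 with 1 library left out.

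Over all genes the count past adjustment, 1, was 83 by DESeq2, 450 with no filter (27704 genes tested, 19 of the 40 called), 2 with the replicate block and run term, 0 with no run term, 0 for r770 alone and 0 without WRE-edited 3 and 6, and 0 to 2 with 1 library left out. The other mitotic genes lower at an unadjusted p, 37, were 4 with no run term, 22 for r770 alone, 28 with the replicate block and run term, 7 with the block in place of the run, 8 with WRE-edited 4 and 6 added up and 15 without WRE-edited 3 and 6, and 26 to 42 with 1 library left out. Shares of all genes lower were 2.58% with no run term, 1.71% for r770 alone, 2.88% with the block and run term, 2.82% with the block in place of the run, 2.71% with the 2 libraries added up and 1.65% without WRE-edited 3 and 6, against 5.14%; with no run term the mitotic share was 2.7%. Of the 40 genes, 32 were lower at an unadjusted p, 16 for r770 alone, 6 with the block in place of the run and 5 with the 2 libraries added up. Between Rosa26-edited runs, 2 of the 40 were called with effective lengths as offsets (7.6% of all genes) and 0 to 0 with 1 library left out.

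Deviations of log2 CPM from the group mean correlated between same-numbered libraries at 0.129, -0.09, 0.178, 0.013 and -0.075. The run was not removed and differently numbered libraries were not compared. These values therefore cannot show whether the replicate numbers pair the samples. Of 924 single-gene values, 15 had the opposite sign (Nek2, Spc24, Spc25 and, with the block in place of the run, Cdc20 at 0.09), 12 moved beyond the spread (5 genes) and 15 newly passed adjustment (10 genes). The causes were not tested. Counts of 5 to 60 for genes such as Ttk limit precision.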
